A study of Rattus norvegicus with 12 samples.

Results

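The genes described here are 29 genes of cholesterol and fatty acid synthesis, found by symbol among the 18469 genes of the deposited expression tables. They hold 18 enzymes that lead from acetyl-CoA to cholesterol, the sterol carrier Stard4, the 5 regulators Srebf1, Srebf2, Scap, Insig1 and Insig2, and 5 enzymes of fatty acid synthesis. All 29 symbols were in the tables, and all 29 genes passed the filter on low counts in every comparison. Their levels were followed in 12 libraries of neonatal rat ventricular myocytes (NRVMs), heart muscle cells of newborn Sprague-Dawley (SD) rats kept in DMEM with an insulin, transferrin and selenium supplement. NRVMs were transfected with a negative control siRNA (siNeg) or with an siRNA against Slc25a26 (siSlc25a26), the mitochondrial carrier of S-adenosylmethionine. Each siRNA had an untreated group and a group exposed to phenylephrine (PE), an α-adrenergic agonist used to induce hypertrophy in culture, for 36 h starting 12 h after transfection. The groups with PE are named siNeg PE and siSlc25a26 PE, and each of the 4 groups held 3 libraries that the design text calls independent biological replicates. The labels do not say how many hearts were pooled in a culture or how many siRNA sequences were used, and the study's paper describes another siRNA target and other times, so the groups here follow the labels.

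Cholesterol is built from acetyl-CoA through mevalonate, the isoprenoid farnesyl diphosphate, squalene and lanosterol, and the same acetyl-CoA feeds fatty acid synthesis through malonyl-CoA. The sterol regulatory element-binding proteins (SREBPs), encoded by Srebf1 and Srebf2, switch on most of these genes. They are held in the endoplasmic reticulum by SCAP and the INSIG proteins while sterols are plentiful, and are carried to the Golgi for cleavage when sterols run low. SREBP-2 is best known for the cholesterol genes and SREBP-1c for the fatty acid genes, and INSIG1 is itself an SREBP target. An enlarging cardiomyocyte adds membrane, and these pathways supply its lipids.

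The total estimated counts were 24770972 to 28709049 per library. The targeted gene Slc25a26 was at 33.7, 32.2 and 29.4 CPM (counts scaled to library size with TMM factors, the trimmed mean of M values) in siNeg and at 15.7, 14.7 and 14.7 in siSlc25a26 (log2 fold change -1.08, SE 0.0798, adjusted p = 1.08e-05). It was at 114, 106 and 86.9 CPM in siNeg PE and at 101, 104 and 98.2 in the 3 labelled siSlc25a26 PE (log2 fold change -0.0062, SE 0.101, adjusted p = 0.969), so the libraries labelled siSlc25a26 PE did not show a lower level of the targeted gene, and they are named by their label. Nppa and Nppb, the natriuretic peptide markers of hypertrophy, rose with PE in siNeg (24.7-fold and 41.3-fold) and in siSlc25a26 (22.9-fold and 40.1-fold). The summed level of 10 cardiomyocyte markers was 31180 to 33160 CPM in siNeg, 45840 to 52720 in siNeg PE, 27010 to 29770 in siSlc25a26 and 57780 to 60960 in siSlc25a26 PE. The summed level of 10 fibroblast markers was 23080 to 25290, 12550 to 12990, 13210 to 14810 and 9550 to 10390 CPM in the same order, and collagen transcripts made up most of it. The fibroblast markers did not move as one. Dcn (0.27 on the log2 scale) and Pdgfra (0.37) passed upward with PE in siNeg, where Col1a1 fell (-0.94). Of the 10 cardiomyocyte markers, 8 had a positive and 2 a negative log2 fold change with PE in siNeg. There Actc1 alone went from a mean of 6557 to 19920 CPM, while Myh6 went from 7019 to 5036. With PE in siSlc25a26, 7 were positive and 3 negative, and Actc1 went from 5439 to 31310 CPM. In bulk RNA, fewer cells of a type and less RNA per cell cannot be told apart, and the part of these shifts in the results below was not tested. The single adipocyte marker in the tables, Cidec, reached at most 0.115 CPM in any library.

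The 250 bases before the transcription start, taken from RefSeq windows on the rat assembly GRCr8, are shown for 5 of the genes because they span the range of responses described below. Idi1 and Scd had the largest increases with PE, Hmgcs1 was raised by both PE and siSlc25a26, Insig1 is the feedback regulator, and Mvd did not pass with PE in siNeg. The submitters' notes name an older assembly, Rnor_6.0, so the coordinates belong to these sequences only and not to the counts. Sequences run 5′ to 3′ on the strand of the gene, and capitals mark 3 motifs on either strand. The first is CCAAT, the core of the NF-Y box. The second is GGGCGG, the core of the Sp1 box. The third is CACNCCAC, the core of a sterol regulatory element without its first base.
Idi1, minus strand of chr17:66547525-66547774: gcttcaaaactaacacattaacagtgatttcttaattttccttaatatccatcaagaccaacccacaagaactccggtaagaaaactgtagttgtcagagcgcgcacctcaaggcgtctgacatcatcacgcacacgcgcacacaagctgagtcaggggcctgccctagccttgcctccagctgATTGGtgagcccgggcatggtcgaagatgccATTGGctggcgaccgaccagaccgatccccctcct
Scd, minus strand of chr1:253231732-253231981: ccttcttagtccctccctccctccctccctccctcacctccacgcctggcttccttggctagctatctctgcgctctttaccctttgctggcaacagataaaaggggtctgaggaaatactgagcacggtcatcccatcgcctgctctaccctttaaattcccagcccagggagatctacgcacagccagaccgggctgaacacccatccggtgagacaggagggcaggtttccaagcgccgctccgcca
Hmgcs1, plus strand of chr2:53382054-53382303: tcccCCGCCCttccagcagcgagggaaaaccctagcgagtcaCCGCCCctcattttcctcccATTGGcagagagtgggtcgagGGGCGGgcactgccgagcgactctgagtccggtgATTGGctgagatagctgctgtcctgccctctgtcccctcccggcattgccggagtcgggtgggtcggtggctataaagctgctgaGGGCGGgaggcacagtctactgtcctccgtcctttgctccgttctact
Insig1, minus strand of chr4:8057770-8058019: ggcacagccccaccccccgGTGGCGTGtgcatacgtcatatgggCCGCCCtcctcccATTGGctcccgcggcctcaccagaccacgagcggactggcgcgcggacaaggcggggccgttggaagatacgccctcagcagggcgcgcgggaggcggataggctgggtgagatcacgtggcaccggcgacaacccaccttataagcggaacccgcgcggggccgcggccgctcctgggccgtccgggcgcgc
Mvd, minus strand of chr19:67414975-67415224: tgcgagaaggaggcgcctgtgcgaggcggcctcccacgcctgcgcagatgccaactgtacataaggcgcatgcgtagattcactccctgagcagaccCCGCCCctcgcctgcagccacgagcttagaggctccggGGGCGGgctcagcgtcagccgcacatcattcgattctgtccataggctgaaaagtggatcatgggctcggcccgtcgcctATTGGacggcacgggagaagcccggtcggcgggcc

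Windows of 300 bases, 250 before and 50 after the start, were held for 22 of the 29 genes among 33469 windows of RefSeq genes in all. CCAAT was in the windows of 17 of the 22 genes (77.3%) and in 37.5% of all windows. GGGCGG was in 18 of 22 (81.8%) against 33.1% of all windows. The full element core TCACNCCAC was in none of the 22, against 1.12% of all windows, and the shorter CACNCCAC, which lies inside it and was added after that count was seen, was in Acat2, Ebp and Insig1 (13.6% against 5.8%). CACGTG, an E-box, was in Insig1, Sc5d and Scap (13.6% against 6.42%). The NF-Y and Sp1 letters were thus in genes that changed and in genes that did not pass in siNeg, Mvd among them, and the Scd window holds none of the motifs searched. A match is a description of these letters and not evidence of binding.

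Within siNeg, levels per length spanned more than 2 orders of magnitude. In FPKM, which divides by transcript length, the highest were Fdps at 266 ± 23.0 (mean ± SD, n = 3), Cyp51 at 116 ± 6.76 and Msmo1 at 82.4 ± 1.09. The lowest were Scd at 9.05 ± 1.66, Stard4 at 5.38 ± 0.233, Hsd17b7 at 5.38 ± 0.542 and Elovl6 at 1.57 ± 0.466. Stard4 and Hsd17b7 did not differ beyond their spread. Reads of Cyp51, Idi1, Fdps, Nsdhl, Acat2 and Scd are uncertain to the extent that RefSeq names near copies of these genes, and 9 of the 29 genes overlap another gene on the genome while the strandedness of the counts is not stated.

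PE raised most of the pathway in siNeg. In the text, a gene passed the test at an adjusted p under 0.05 by edgeR (quasi-likelihood F-test, p-values adjusted over all genes tested by the Benjamini-Hochberg method), and was called when it also changed by more than 1.5-fold. PE against no PE in siNeg called 12 of the 29 genes higher (41.4%), where 12.4% of the 13719 genes tested were called higher. None was called lower by edgeR, DESeq2 or limma-voom (8.24% of all genes), and 2 were lower at an unadjusted p under 0.05. At any fold, 21 genes passed in the upward direction (25.2% of all genes) and 1, Scap, in the downward direction (24.3%). The downward count was 3 with library totals and with each of the 3 FPKM fits. The libraries of the 2 groups did not overlap for 25 of the 29 genes (58.7% of all genes). The median log2 fold change of the 29 genes was 0.46 against 0.00016 over all genes. Their summed level was 2917 to 2998 CPM in siNeg and 4572 to 4597 CPM in siNeg PE.

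With PE in siSlc25a26, where the targeted gene was at the level of siNeg PE, 16 of the 29 genes (55.2%) were called higher (10.1% of the 13776 genes tested). None was called lower by edgeR, DESeq2 or limma-voom (10.4% of all genes), and none was lower at an unadjusted p under 0.05. At any fold, 26 passed upward (26.4% of all genes) and none downward (26%). Groups did not overlap for 26 of 29 (61% of all genes), and the median log2 fold change was 0.68 against -0.0036 over all genes. The summed level went from 2756 to 2825 CPM without PE to 5011 to 5243 CPM with PE. These PE comparisons share no library: 20 genes passed upward in both, and 11 were called higher in both, which is 11 of the 12 called in siNeg and 11 of the 16 called in siSlc25a26. The share of all genes that did so in both was not counted. Insig2 alone passed in neither direction in either comparison.

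**Figure D1:**
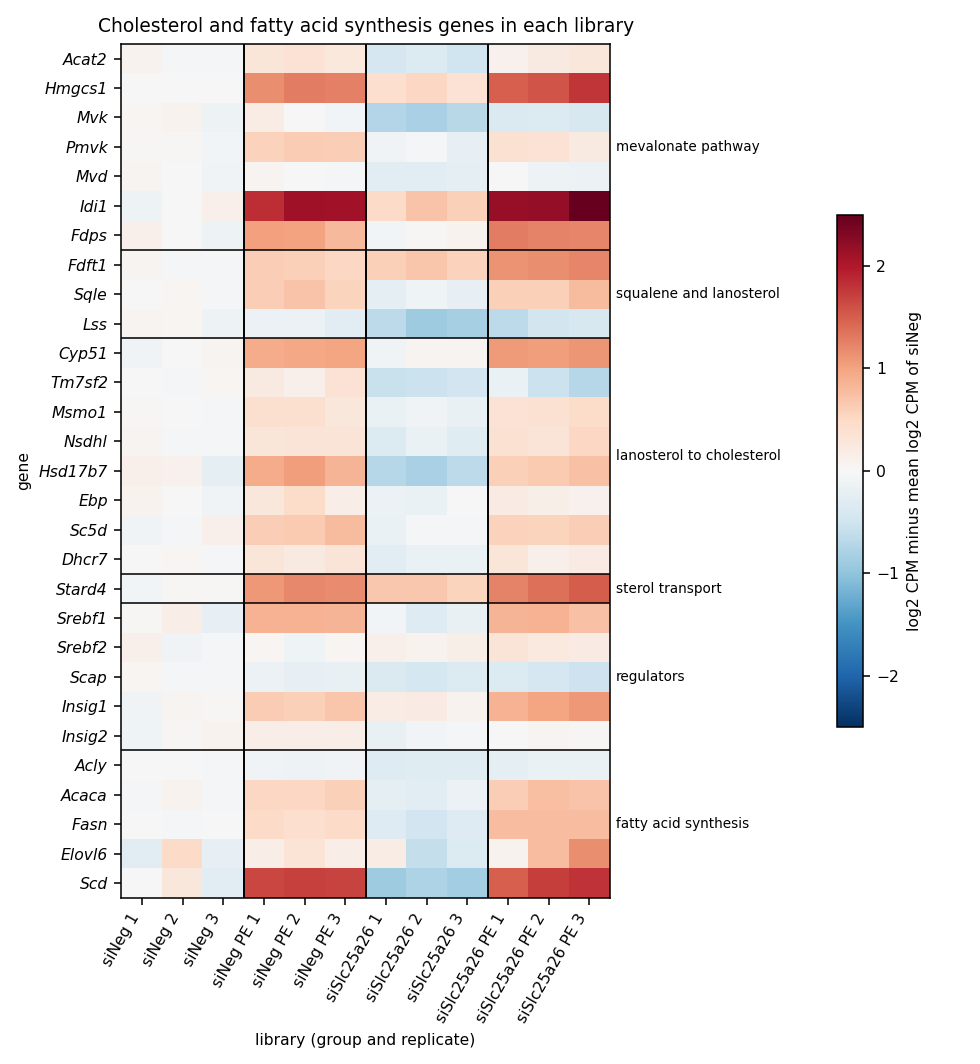
Level of each of the 29 genes (rows, grouped by role) in each of the 12 libraries (columns), as log2 CPM less the mean log2 CPM of the 3 siNeg libraries; red is higher and blue lower. Idi1, Scd and Hmgcs1 are the reddest rows in both PE groups, and Lss, Mvk, Hsd17b7 and Scd are the bluest in siSlc25a26 without PE.

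Of the 7 enzymes of the mevalonate pathway, 4 were called higher with PE in siNeg (Hmgcs1, Pmvk, Idi1 and Fdps), and 5 passed at any fold. Idi1, the isomerase that makes dimethylallyl diphosphate, was at 29.03, 31.9 and 34.6 CPM in siNeg and 114, 139 and 137 CPM in siNeg PE. It was at 44.4, 51.9 and 47.9 CPM in siSlc25a26 and 144, 145 and 197 CPM in the 3 labelled siSlc25a26 PE. Both PE groups lay wholly above both untreated groups. The increase with PE was 4.08-fold in siNeg (log2 fold change 2.03, SE 0.104, adjusted p = 8.81e-06) and 3.42-fold in siSlc25a26 (log2 fold change 1.77, SE 0.125, adjusted p = 5.9e-06), and the difference between those increases did not pass (adjusted p = 0.334 in edgeR).

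Hmgcs1, the synthase that forms HMG-CoA, stood at 147, 146 and 148 CPM in siNeg and 327, 359 and 353 CPM in siNeg PE. The siSlc25a26 libraries were at 197, 211 and 188 CPM and those labelled siSlc25a26 PE at 415, 437 and 508 CPM. No group overlapped another, and the order was siNeg, siSlc25a26, siNeg PE and siSlc25a26 PE. PE raised Hmgcs1 2.36-fold in siNeg (adjusted p = 5.63e-06 in edgeR) and 2.31-fold in siSlc25a26 (adjusted p = 4.79e-06 in edgeR).

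Fdps, which makes farnesyl diphosphate, went from 314 ± 28.1 to 605 ± 50.3 CPM with PE in siNeg (mean ± SD, n = 3 per group) and from 316 ± 16.7 to 741 ± 14.7 in siSlc25a26. Pmvk, phosphomevalonate kinase, was at 31.2, 31.2 and 29.4 CPM in siNeg and 45.8, 47.7 and 46.9 in siNeg PE. It was at 28.6, 30.0 and 26.4 CPM in siSlc25a26 and 39.8, 39.2 and 35.8 in the 3 labelled siSlc25a26 PE, a smaller step that passed without reaching 1.5-fold (log2 fold change 0.45, SE 0.0734, adjusted p = 0.000872). Acat2, the cytosolic thiolase that opens the pathway, rose by 0.31 on the log2 scale in siNeg and by 0.64 in siSlc25a26.

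The 2 remaining mevalonate enzymes did not pass with PE in siNeg. Mvk, mevalonate kinase, was at 29.4, 30.3 and 25.9 CPM in siNeg and at 32.2, 28.3 and 27.2 CPM in siNeg PE, and the groups overlapped (log2 fold change 0.036, SE 0.0865, adjusted p = 0.753). In siSlc25a26 it was at 17.1, 16.3 and 17.6 CPM without and 22.3, 22.6 and 21.7 CPM with PE (log2 fold change 0.40, SE 0.0686, adjusted p = 0.00113). Mvd, mevalonate diphosphate decarboxylase, was at 44.9 ± 2.22 CPM in siNeg and 45.2 ± 1.74 CPM in siNeg PE (log2 fold change 0.013, SE 0.0629, adjusted p = 0.883). In siSlc25a26 it was at 37.3 ± 0.810 without and 41.9 ± 2.21 with PE (log2 fold change 0.19, SE 0.0611, adjusted p = 0.0285). With library totals in place of TMM scaling, that log2 fold change was 0.015 (adjusted p = 0.844 in edgeR).

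From farnesyl diphosphate to lanosterol, Fdft1 and Sqle rose with PE under both siRNAs. Fdft1, squalene synthase, was at 104, 96.0 and 96.0 CPM in siNeg and 152, 149 and 141 CPM in siNeg PE. It was at 149, 159 and 148 CPM in siSlc25a26 and 215, 220.5 and 228 CPM in the 3 labelled siSlc25a26 PE. The siNeg PE and siSlc25a26 libraries lay at about the same height, between siNeg and siSlc25a26 PE. The PE increase of Fdft1 passed in siNeg at just under 1.5-fold (log2 fold change 0.58, SE 0.0561, adjusted p = 0.00014).

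Sqle, squalene epoxidase, went from 71.8 ± 2.42 to 111 ± 5.79 CPM with PE in siNeg and from 63.0 ± 3.03 to 114 ± 9.44 in siSlc25a26. Lss, lanosterol synthase, stood at 49.9, 49.1 and 43.6 CPM in siNeg and 43.1, 42.8 and 39.4 CPM in siNeg PE. It was at 30.3, 25.8 and 26.6 CPM in siSlc25a26 and 30.3, 34.7 and 35.9 CPM in the 3 labelled siSlc25a26 PE. In siNeg the PE libraries were all below the untreated ones without passing (log2 fold change -0.18, SE 0.0720, adjusted p = 0.0623), and in siSlc25a26 they were at or above the highest untreated one and passed (log2 fold change 0.31, SE 0.0899, adjusted p = 0.0186).

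All 8 enzymes between lanosterol and cholesterol passed upward with PE in siNeg, 3 of them called (Cyp51, Hsd17b7 and Sc5d), and 7 passed upward in siSlc25a26, 4 of them called (these 3 and Nsdhl). Cyp51, lanosterol demethylase, had the highest level per length of them in siNeg and went from 341 ± 18.1 to 661 ± 14.9 CPM in siNeg and from 343 ± 20.8 to 714 ± 16.8 in siSlc25a26. Hsd17b7, the ketosteroid reductase of the demethylation steps, was at 17.3, 17.1 and 13.6 CPM in siNeg and 30.4, 32.6 and 28.7 CPM in siNeg PE. Its siSlc25a26 libraries were at 9.71, 9.01 and 10.1 CPM and those labelled siSlc25a26 PE at 24.2, 24.9 and 26.5 CPM. Each treatment separated the Hsd17b7 libraries without overlap, and its PE increase was 1.91-fold in siNeg and 2.66-fold in siSlc25a26.

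Sc5d, the sterol desaturase, rose 1.61-fold in siNeg and 1.61-fold in siSlc25a26. Nsdhl, the decarboxylating sterol dehydrogenase, rose by 0.32 and 0.70 on the log2 scale, and Msmo1, the methylsterol monooxygenase, by 0.36 and 0.56. Dhcr7, the last reductase, rose by 0.28 and 0.44, and Ebp, the sterol isomerase, by 0.31 and 0.28. Stard4, which moves sterol between membranes, was at 21.2, 22.7 and 22.8 CPM in siNeg and 47.3, 51.1 and 50.3 in siNeg PE. It was at 35.4, 35.5 and 32.6 CPM in siSlc25a26 and 52.5, 57.9 and 63.6 in the 3 labelled siSlc25a26 PE. PE raised Stard4 2.23-fold in siNeg (adjusted p = 1.65e-05 in edgeR) and 1.70-fold in siSlc25a26 (adjusted p = 7e-05 in edgeR).

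Tm7sf2, a sterol reductase that acts after Cyp51, gave different sizes in the 2 deposited tables. Its counts were 87.9, 85.4 and 90.8 CPM in siNeg and 102, 96.6 and 113 CPM in siNeg PE, a log2 fold change of 0.24 (adjusted p = 0.0213 in edgeR) that became 0.89 on log2(FPKM + 1) in limma. Its counts in siSlc25a26 were 59.5, 60.3 and 63.5 CPM, and 78.7, 60.7 and 53.9 CPM with PE, with overlap between the groups. The ratio of CPM from plain library totals, without TMM scaling, to FPKM gives the transcript length that the authors' FPKM implies, in kb. It was 4.13 in siNeg and 4.12 in siSlc25a26, but 2.51 (range 2.3 to 2.64) in siNeg PE and 2.7 (range 2.53 to 2.88) in siSlc25a26 PE. The highest group was 1.64 times the lowest for Tm7sf2 and 1.25 times for Hsd17b7, and at most 1.08 times for the other 27 genes.

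**Figure D2:**
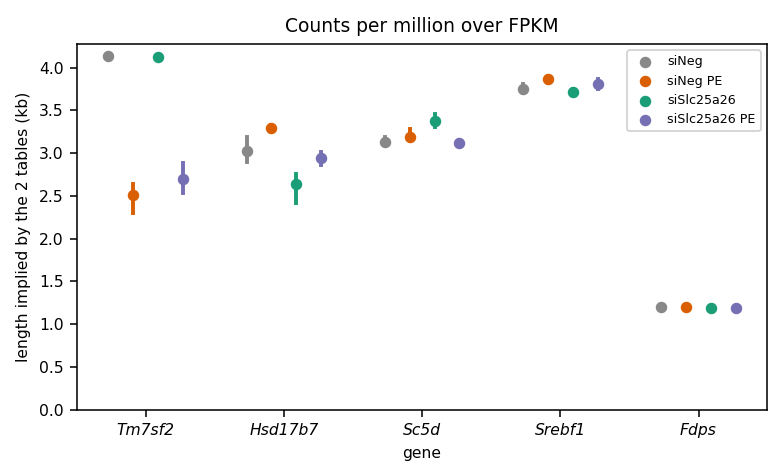
Ratio of CPM from plain library totals (without TMM scaling) to FPKM in kb, the transcript length that the deposited FPKM values imply, for 5 genes on the horizontal axis; points are group means of 3 libraries and bars the range. Tm7sf2 falls from about 4.13 kb in the untreated groups to 2.51 kb in siNeg PE and 2.7 kb in siSlc25a26 PE, while Fdps stays level.

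Of the regulators, Srebf1 and Insig1 were called higher with PE under both siRNAs, and Srebf2, Scap and Insig2 were not called. Srebf1 was at 86.5, 93.9 and 73.4 CPM in siNeg and 154, 153 and 152 CPM in siNeg PE. It was at 80.7, 67.0 and 74.3 CPM in siSlc25a26 and 152, 154 and 139 CPM in the 3 labelled siSlc25a26 PE. Each PE group lay above both untreated groups, with log2 fold change 0.86, SE 0.0828, adjusted p = 0.000141 in siNeg and log2 fold change 1.02, SE 0.0737, adjusted p = 6.68e-06 in siSlc25a26.

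Insig1 stood at 121, 136 and 132 CPM in siNeg and 202, 196 and 210.1 CPM in siNeg PE. It was at 147, 150.0 and 138 CPM in siSlc25a26 and 237, 258 and 274 CPM in the 3 labelled siSlc25a26 PE, the highest group. Insig2, the other retention protein, was at 24.1, 26.5 and 27.8 CPM in siNeg and 29.3, 29.5 and 29.5 CPM in siNeg PE (log2 fold change 0.17, SE 0.0732, adjusted p = 0.0834). In siSlc25a26 it was at 22.9, 25.0 and 25.1 CPM and with PE at 25.97, 27.3 and 26.5 CPM (log2 fold change 0.15, SE 0.0673, adjusted p = 0.0977).

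Srebf2, the gene of SREBP-2, was at 192, 167 and 172 CPM in siNeg and 184, 164 and 182 CPM in siNeg PE, with overlapping groups (log2 fold change -0.0024, SE 0.0725, adjusted p = 0.981). It was at 193, 188 and 196 CPM in siSlc25a26 and 220.3, 209.8 and 203 CPM in the 3 labelled siSlc25a26 PE (log2 fold change 0.15, SE 0.0487, adjusted p = 0.0288), a step whose sign turned when counts were scaled by library totals or as FPKM. Scap was at 108, 102 and 101 CPM in siNeg and 92.9, 89.5 and 91.0 CPM in siNeg PE (log2 fold change -0.18, SE 0.0519, adjusted p = 0.0201), the one gene of the 29 that passed downward with PE. In siSlc25a26 Scap was at 80.2, 76.2 and 81.1 CPM and with PE at 82.0, 77.7 and 72.4 CPM (log2 fold change -0.016, SE 0.0591, adjusted p = 0.844).

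Of the 5 enzymes of fatty acid synthesis, 1 was called higher with PE in siNeg and 4 in siSlc25a26. Scd, the desaturase that makes monounsaturated fatty acids, was at 41.2, 49.9 and 33.5 CPM in siNeg and 130.3, 134 and 132 CPM in siNeg PE. It was at 22.1, 24.1 and 22.5 CPM in siSlc25a26 and 115, 135 and 144 CPM in the 3 labelled siSlc25a26 PE. The untreated siSlc25a26 libraries were the lowest, and both PE groups overlapped. PE raised Scd 3.19-fold in siNeg (adjusted p = 3.83e-05 in edgeR) and 5.82-fold in siSlc25a26 (adjusted p = 1.32e-07 in edgeR).

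Fasn, fatty acid synthase, was at 373, 361 and 372 CPM in siNeg and 512, 496 and 513 CPM in siNeg PE. It was at 296, 265 and 296 CPM in siSlc25a26 and 626, 626 and 625 CPM in the 3 labelled siSlc25a26 PE. No group overlapped another, with siSlc25a26 lowest and those labelled siSlc25a26 PE highest. Its PE increase was 1.38-fold in siNeg, below the call threshold, and 2.22-fold in siSlc25a26. Acaca, acetyl-CoA carboxylase, went from 102 ± 5.34 to 148 ± 4.89 CPM in siNeg and from 87.9 ± 3.22 to 165 ± 8.91 in siSlc25a26.

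Acly, which supplies cytosolic acetyl-CoA from citrate, was at 183, 184 and 178 CPM in siNeg and 170.0, 166 and 172 CPM in siNeg PE (log2 fold change -0.10, SE 0.0466, adjusted p = 0.11). It was at 146, 147 and 148 CPM in siSlc25a26 and 155, 162 and 162 CPM in the 3 labelled siSlc25a26 PE (log2 fold change 0.14, SE 0.0463, adjusted p = 0.0319), and this step also changed sign under scaling by library totals or as FPKM. Elovl6, the elongase of palmitate, had the lowest level per length of the 29 genes in siNeg and was at 3.01, 5.06 and 3.15 CPM in siNeg and 4.05, 4.63 and 4.06 in siNeg PE. It was at 4.13, 2.39 and 2.88 CPM in siSlc25a26 and 3.86, 6.21 and 8.14 in the 3 labelled siSlc25a26 PE, with overlap in both PE comparisons, and its call in siSlc25a26 (log2 fold change 0.97, SE 0.286, adjusted p = 0.0186) fell to an adjusted p of 0.0544 in edgeR without siSlc25a26 PE replicate 3 and to 0.0741 without siSlc25a26 replicate 2.

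**Figure D3:**
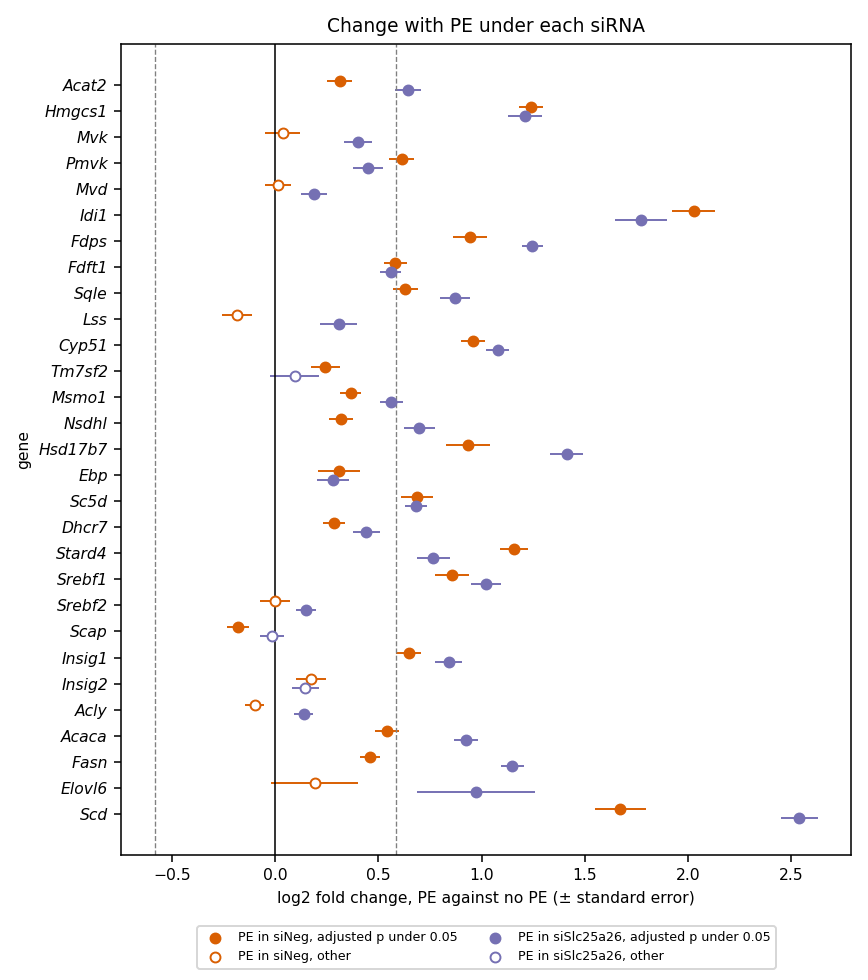
Log2 fold change of each of the 29 genes with PE (horizontal axis, ± standard error) in siNeg (orange) and in siSlc25a26 (purple); filled points passed at an adjusted p under 0.05 and dashed lines mark 1.5-fold. Most points lie right of zero, and Scd, Fasn and Acaca lie further right in siSlc25a26 than in siNeg while Idi1 and Stard4 lie further left.

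Whether the PE response differed between the siRNAs was tested as an interaction over all 12 libraries. The PE effect in siSlc25a26 less that in siNeg was called higher for 2 of the 29 genes (2.16% of the 14097 genes tested). These were Scd (log2 difference 0.85, SE 0.161, adjusted p = 0.00573) and Fasn (log2 difference 0.67, SE 0.0689, adjusted p = 0.000207), which also passed under every alternative tried. No gene was called lower by edgeR, DESeq2 or limma-voom (3.34% of all genes), and 1 was lower at an unadjusted p under 0.05. At any fold, 8 genes passed with a larger PE effect in siSlc25a26 (5.48% of all genes) and 1, Stard4, with a smaller one (5.73%). Those 8 all passed downward in siSlc25a26 against siNeg without PE, a comparison that uses the same untreated libraries.

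The other 6 with a larger effect were Lss, Hsd17b7, Acaca, Nsdhl, Acat2 and Acly, with differences of 0.47, 0.45, 0.36, 0.36, 0.31 and 0.21 on the log2 scale. The difference for Stard4 was -0.41 (adjusted p = 0.026 in edgeR). Among the fatty acid enzymes 4 of 5 passed, the exception being Elovl6 (log2 difference 0.76, SE 0.391, adjusted p = 0.241). Among the 7 mevalonate enzymes only Acat2 passed, and the difference was -0.28 for Idi1 and -0.19 for Pmvk, neither of which passed. The median difference over the 29 genes was 0.15 against -0.045 over all genes. With library totals in place of TMM scaling, the median over all genes moved to -0.15 and that of the 29 genes to 0.045, and the count with a larger effect fell from 8 to 2.

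Without PE, siSlc25a26 lowered more of these genes than it raised. Against siNeg, 4 of the 29 genes were called lower (7.2% of the 13829 genes tested) and 3 higher (8.92%), the latter close to the share over all genes. At any fold, 15 passed downward (21.7% of all genes) and 4 upward (23.3%). Groups did not overlap for 20 of 29 (56.5% of all genes), and the median log2 fold change was -0.19 against 0.015 over all genes. The genes called lower were Scd (1.81-fold lower), Lss (1.73-fold lower), Mvk (1.68-fold lower) and Hsd17b7 (1.67-fold lower). Adjusted p-values in edgeR were 0.000818, 0.000106, 0.000143 and 0.000909.

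The genes called higher were Stard4 (1.55-fold), Fdft1 (1.54-fold) and Idi1 (1.51-fold), with adjusted p-values in edgeR of 0.000135, 3.03e-05 and 0.000565. Hmgcs1 also passed upward (log2 fold change 0.44, SE 0.0537, adjusted p = 0.00026). Idi1 lay just inside the fold threshold and fell below it with DESeq2 size factors (log2 fold change 0.58) and without siNeg replicate 1 (0.53), siNeg replicate 2 (0.58) or siSlc25a26 replicate 2 (0.54). By role, 4 of 5 fatty acid enzymes passed downward (Acly, Acaca, Fasn and Scd), as did 5 of 8 enzymes after lanosterol (Tm7sf2, Msmo1, Nsdhl, Hsd17b7 and Dhcr7). The mevalonate enzymes were divided, with Hmgcs1 and Idi1 upward and Acat2, Mvk and Mvd downward. Of the regulators, Scap passed downward (log2 fold change -0.38, SE 0.0509, adjusted p = 0.000392), and Srebf1 (log2 fold change -0.19, SE 0.0974, adjusted p = 0.137), Srebf2 (log2 fold change 0.12, SE 0.0598, adjusted p = 0.121), Insig1 (log2 fold change 0.16, SE 0.0597, adjusted p = 0.0527) and Insig2 (log2 fold change -0.10, SE 0.0796, adjusted p = 0.319) did not pass.

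Under PE, 1 gene was called in each direction, which is a smaller share than over all genes. The libraries labelled siSlc25a26 PE, whose Slc25a26 level was not lower, were set against siNeg PE, and Fdft1 was called higher (7.71% of the 13671 genes tested) and Tm7sf2 lower (8.1%), with log2 fold change 0.60, SE 0.0621, adjusted p = 0.000121 and log2 fold change -0.68, SE 0.125, adjusted p = 0.00262. Both calls lay near the fold threshold: the log2 fold change of Fdft1 was 0.54 without siNeg PE replicate 3, and that of Tm7sf2 was -0.55 without siSlc25a26 PE replicate 3. Each was then under 1.5-fold but still passed (adjusted p = 0.000522 and 0.00738 in edgeR). Fdft1 was also under 1.5-fold with library totals (0.53), the 3 FPKM fits (0.52 to 0.53) and at least 10 counts in every library (0.58). At any fold, 7 passed upward (20.1% of all genes) and 6 downward (20.1%). Groups did not overlap for 18 of 29 (51.8% of all genes), and the median was 0.0051 against -0.0028 over all genes.

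The genes that passed upward under PE were Fdft1, Hmgcs1 (0.40 on the log2 scale), Insig1 (0.35), Fasn (0.32), Fdps (0.30), Srebf2 (0.27) and Stard4 (0.24). Those that passed downward were Tm7sf2, Mvk (-0.39), Lss (-0.30), Pmvk (-0.28), Hsd17b7 (-0.27) and Scap (-0.23). Elovl6 had a log2 fold change of 0.53 that did not pass (adjusted p = 0.119 in edgeR). The comparisons without and with PE share no library: Fdft1, Hmgcs1 and Stard4 passed upward in both, and Lss, Mvk, Hsd17b7, Tm7sf2 and Scap passed downward in both. The share of all genes that passed in both was not counted. Under PE, Stard4 lost its adjusted p under 0.05 in 12 of 17 alternatives, Hsd17b7 in 7, and Lss and Scap in 4 each. Fasn passed downward without PE (log2 fold change -0.37, SE 0.0559, adjusted p = 0.000843) and upward under PE (log2 fold change 0.32, SE 0.0542, adjusted p = 0.00187).

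**Figure D4:**
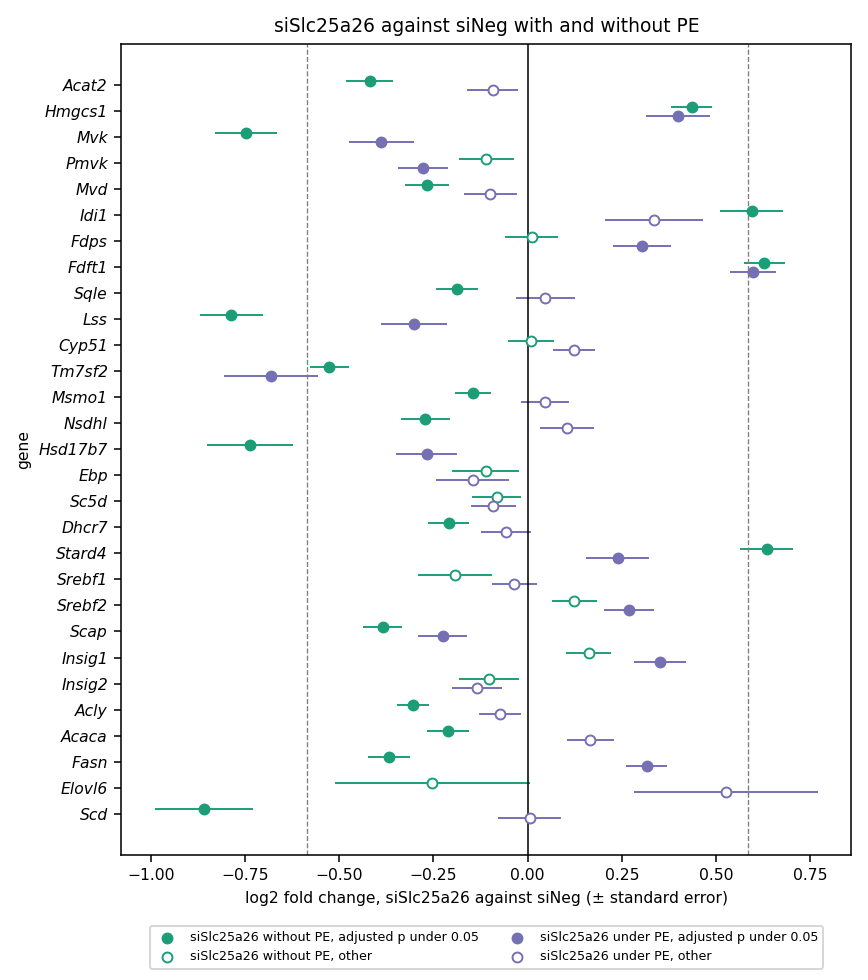
Log2 fold change of each of the 29 genes in siSlc25a26 against siNeg (horizontal axis, ± standard error) without PE (green) and under PE (purple); filled points passed at an adjusted p under 0.05 and dashed lines mark 1.5-fold. Scd is at -0.86 without PE and 0.0051 under PE, and Fdft1 lies right of 1.5-fold in both.

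Other RNA moved with the siRNA as well. The 20 interferon response genes examined were listed because this response stood apart in the siSlc25a26 libraries in an earlier account of these data. All 20 were called higher in siSlc25a26 both without and under PE (8.92% and 7.71% of all genes), so that count is not an independent result. Their summed level was 393 to 448 CPM in siNeg, 301 to 328 in siNeg PE, 10810 to 11700 in siSlc25a26 and 6556 to 7125 in siSlc25a26 PE. Of the 10 fibroblast markers, 6 were called lower in siSlc25a26 without PE (7.2% of all genes). Under PE 4 were called lower (8.1%) and 1, Tcf21, higher (7.71%). With PE, 6 were called lower in siNeg (8.24% of all genes) and 2 in siSlc25a26 (10.4%). At any fold 2 passed upward in siNeg (25.2%) and 1 in siSlc25a26 (26.4%). The part of either in the values of the 29 genes was not tested.

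**Figure D5:**
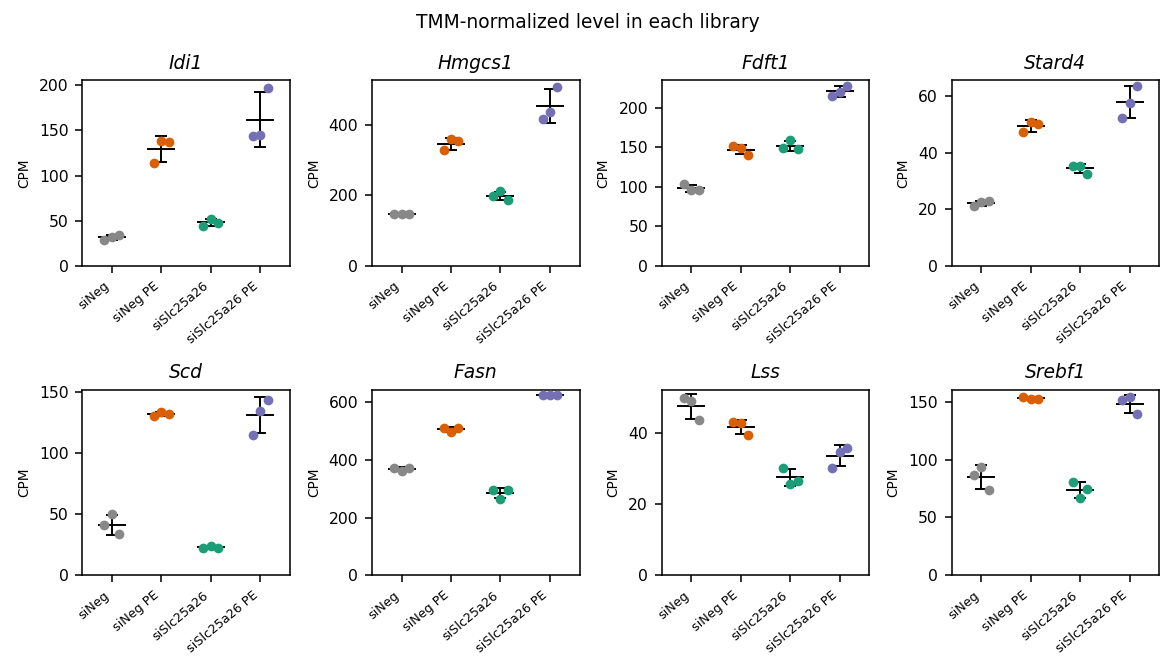
Level in CPM of 8 of the genes in each library (points), with the group mean and SD (bars, n = 3), on axes that start at 0. PE raises Idi1, Hmgcs1, Scd and Srebf1 under both siRNAs, Fdft1 and Stard4 are also higher with siSlc25a26 alone, and Lss is lower with siSlc25a26.

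Among 30 other genes that SREBPs regulate or that process SREBPs, 28 were tested. With PE, 4 were called higher in siNeg (12.4% of all genes) and 11 in siSlc25a26 (10.1%), and 0 and 2 were called lower (8.24% and 10.4%). At any fold 14 passed upward and 7 downward in siNeg (25.2% and 24.3% of all genes). In siSlc25a26, 15 passed upward and 3 downward (26.4% and 26%). Those called higher in siNeg included Scd2, a second desaturase (1.28 on the log2 scale), and Acsl3, which activates fatty acids (0.97). In siSlc25a26 they included Scd2 (1.80) and the desaturase family gene Fads3 (1.40). Lpin1 (-0.86) and Gpam (-0.81), enzymes of glycerolipid synthesis, were called lower in siSlc25a26. Genes whose PE effect was called larger in siSlc25a26 included Fads3, with a difference of 0.88 on the log2 scale. Without PE, Scd2 was called lower in siSlc25a26 (-0.63), and genes called higher under PE included Fads3 (0.77). The median of this list was 0.26 in siNeg and 0.23 in siSlc25a26 with PE, against 0.00016 and -0.0036 over all genes.

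Of 14 genes of the branches that leave the mevalonate pathway, 6 passed upward with PE in siNeg (25.2% of all genes) and 1 downward (24.3%). In siSlc25a26, 7 passed upward (26.4% of all genes). The one called was Pdss1, which makes the side chain of coenzyme Q, at 1.12 in siNeg and 1.18 in siSlc25a26 on the log2 scale. That is 7.14% of the list, where 12.4% and 10.1% of all genes were called higher.

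The list of sterol efflux, esterification and oxysterol genes held 24 genes. With PE, 4 were called higher and 2 lower in siNeg, where 12.4% and 8.24% of all genes were, and 3 higher and 4 lower in siSlc25a26, where 10.1% and 10.4% were. At any fold 4 passed upward and 11 downward in siNeg (25.2% and 24.3% of all genes). In siSlc25a26, 5 passed upward and 8 downward (26.4% and 26%). Abcg1, a sterol exporter, rose by 2.24 and 2.57 on the log2 scale, and Abca1, another exporter, by 0.90 and 1.16. Rxra, the partner receptor of the sterol sensors LXR, fell with PE (-0.89 and -1.23). siSlc25a26 lowered Abca1 without PE (-0.97) and under PE (-0.71), and lowered Apoe (-2.11 and -1.64). Cyp27a1, which makes an oxysterol, was higher in siSlc25a26 without PE (1.31), and its PE effect differed between the siRNAs (-0.77). Ch25h did not pass in any comparison, with a log2 fold change of 1.08 for PE in siNeg (adjusted p = 0.054 in edgeR), and Mylip, a ubiquitin ligase gene, passed upward with PE in siSlc25a26 (0.46) and with siSlc25a26 under PE (0.37).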

How the data were processed

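RNA of 12 NRVM libraries, sequenced by BGI, was analysed in 4 groups of 3 taken from the labels. The authors deposited expected counts, estimated per gene from aligned reads and not normalized, of which 20.8% to 21.9% were not whole. They also deposited FPKM values, which the authors scaled by transcript length and library size. The submitters' processing notes name HISAT, Bowtie2 and the build Rnor_6.0. The counting program and strandedness are not given in the sources used here. The planned design assumed plain counts, so the expected counts were rounded. Counts were tested with edgeR 4.0.16 in R 4.3.3 (TMM, filterByExpr, quasi-likelihood F-test, Benjamini-Hochberg adjustment over all genes tested), with the libraries of the groups compared only, or all 12 for the difference between PE effects. Genes were called at an adjusted p under 0.05 and a change of more than 1.5-fold, the thresholds of the study's methods. The SE given with an edgeR fold change, also in the figures, was derived from the test. It is the absolute log2 fold change divided by the square root of the F statistic. CPM values use TMM factors over all 12 libraries. At this depth, 3 counts equal 0.0983 to 0.121 CPM, and precision is limited by 3 libraries per group.

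The 29 genes, the pathway and marker lists and the tests were chosen with earlier results of these data known. Every one of the 29 genes was to be named, with values per library for those with the largest changes in each comparison and for the regulators. Of each list, up to 3 called genes per comparison and Ch25h, Abca1 and Mylip were to be named. Alternatives were DESeq2 1.42.0 and its size factors, library totals without TMM, limma 3.58.1 (voom, log2(FPKM + 1), log2(FPKM + 0.1) with a mean FPKM of at least 0.1, and no filter), no count filter, 10 counts or more per library, a block for the replicate number, one fit of all 12 libraries, no fold threshold and leaving out single libraries. No labels give a batch. Libraries of a group differed by more than sampling noise, and the procedure was tested on simulated data. Promoter windows came from RefSeq (GRCr8). All 29 gene identifiers matched RefSeq. Some genes counted in the pathway lists are not reported here by name.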

Additional observations from a re-analysis of the deposited data

Results flagged for a closer look

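The size of the PE response differed between siNeg and siSlc25a26 at an adjusted p under 0.05 for 9 of the 29 genes, by edgeR's interaction term over all 12 libraries. Over all genes, 5.48% passed with a larger PE effect in siSlc25a26 and 5.73% with a smaller one. The PE effect was larger in siSlc25a26 by 0.85 on the log2 scale for Scd, 0.67 for Fasn, 0.47 for Lss and 0.45 for Hsd17b7. It was larger by 0.36 for Acaca, 0.36 for Nsdhl, 0.31 for Acat2 and 0.21 for Acly. For Stard4 it was smaller, with a difference of -0.41. The 8 genes with a larger effect all passed downward in siSlc25a26 against siNeg without PE, and the same untreated libraries enter both comparisons. In siSlc25a26 PE against siNeg PE, Fasn passed upward, Lss and Hsd17b7 passed downward, and the rest of the 8 did not pass. Only Scd and Fasn kept an adjusted p under 0.05 under every alternative tried, and the other 7 lost it in at least 1. Of 22 alternatives, Hsd17b7 lost it in 17, Acat2 and Acly in 13 each and Lss in 11. Nsdhl lost it in 9, Stard4 in 7 and Acaca in 4. The targeted gene Slc25a26 itself had a PE effect larger by 1.06 in siSlc25a26 (adjusted p = 0.000466 in edgeR), and was not lower in the libraries labelled siSlc25a26 PE than in siNeg PE.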

How the results depend on the processing

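The counts of called genes stayed within 1.5 times their value except as follows. Without a fold threshold, PE gave 21 higher and 1 lower in siNeg and 26 higher in siSlc25a26, siSlc25a26 without PE gave 15 lower, siSlc25a26 under PE gave 7 higher and 6 lower, and the difference of PE effects gave 8 higher and 1 lower. With library totals, with each of the 3 FPKM fits and with at least 10 counts in every library, the count higher in siSlc25a26 under PE was 0. With library totals and the 3 FPKM fits, 1 gene, Scd, had a PE effect called larger in siSlc25a26. Fasn passed there but was under 1.5-fold (0.56 with library totals and 0.55 to 0.56 in the FPKM fits). The sign of Srebf2 and Acly with PE in siSlc25a26 turned with library totals (-0.024 and -0.034), log2(FPKM + 1) with and without the filter (-0.023 and -0.035) and log2(FPKM + 0.1) (-0.024 and -0.036). At any fold, library totals and the 3 FPKM fits took the upward count with PE in siSlc25a26 from 26 to 21, with Lss, Mvd and Ebp among those lost. They took the downward count with PE from 0 to 1 in siSlc25a26 and the count with a larger PE effect in siSlc25a26 from 8 to 2. The FPKM fits took the count with a smaller one from 1 to 2. Library totals moved the median of all genes from -0.0036 to -0.18 for PE in siSlc25a26, while that of the 29 genes relative to it was 0.69 under both scalings.

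Leaving out 1 library gave 12 to 13 genes called higher with PE in siNeg, 15 to 17 in siSlc25a26, 2 to 3 higher and 4 lower in siSlc25a26 without PE, and 2 for the difference. Under PE it gave 0 to 2 higher (0 without siNeg PE replicate 3 and 2 without siSlc25a26 PE replicate 1) and 0 to 1 lower (0 without siSlc25a26 PE replicate 3). An adjusted p under 0.05 was lost or the sign turned in at least 1 alternative for Ebp, Tm7sf2 and Scap (PE in siNeg), for Lss, Mvd, Ebp, Srebf2, Acly and Elovl6 (PE in siSlc25a26), for Sqle, Dhcr7, Msmo1 and Acaca (siSlc25a26 without PE) and for Lss, Hsd17b7, Srebf2, Scap and Stard4 (under PE). The cause was not tested.

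The correlations of same-numbered deviations ran from -0.0913 to 0.216. Their mean was 0.123 for PE in siNeg (-0.0616 for other pairs) and 0.135 for siSlc25a26 under PE (-0.0673). It was -0.0392 for PE in siSlc25a26 and 0.00013 for siSlc25a26 without PE. Any pairing by replicate number was thus weak and not seen in every comparison. With the replicate block, 12 and 16 genes were called higher with PE, 3 higher and 4 lower in siSlc25a26 without PE, 1 higher and 1 lower under PE, and 2 higher for the difference. At any fold, 3 genes rather than 1 passed downward with PE in siNeg. Upward, 22 rather than 26 passed with PE in siSlc25a26, and 10 rather than 7 in siSlc25a26 under PE.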

Other observations

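The summed level of the 30 other SREBP-related genes was 3481 to 3633 CPM in siNeg, 5114 to 5148 in siNeg PE, 3057 to 3122 in siSlc25a26 and 5399 to 5480 in siSlc25a26 PE, the order in which the groups also fall for the sum of the 29 genes. Scd2 alone went from a mean of 932.6 to 2254 CPM with PE in siNeg and from 602.5 to 2076 in siSlc25a26. Of the 28 genes tested in this list, 14 passed upward and 7 downward with PE in siNeg (25.2% and 24.3% of all genes). The sums of the efflux and oxysterol genes ran the other way with PE, from 1274 to 1328 CPM down to 1163 to 1179 in siNeg and from 1220 to 1243 down to 1062 to 1117 in siSlc25a26. The receptor gene Rxra alone went from a mean of 239.5 to 129.4 CPM in siNeg and from 236.3 to 99.23 in siSlc25a26. The genes of this list moved both ways. With PE in siNeg, 4 passed upward and 11 downward (25.2% and 24.3% of all genes), and the exporters Abca1 and Abcg1 rose under both siRNAs. The sums of the mevalonate branch genes were 494 to 517 CPM in siNeg, 535 to 560.4 in siNeg PE, 481.5 to 487 in siSlc25a26 and 524 to 539 in siSlc25a26 PE.

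Endothelial markers summed to 22.1 to 29.1 CPM over the 12 libraries. Macrophage markers summed to 27.3 to 34.3 CPM in siNeg and 15.4 to 18.3 in siNeg PE. Their sum was 18.7 to 19.5 CPM in siSlc25a26 and 14.9 to 19.8 in siSlc25a26 PE. Markers within each list differed in level. Ptprc and Pecam1 stayed below 1 CPM, while the highest library had 20.7 CPM of Tek, 13.2 of Kdr and 17.5 of Cd68. Smooth muscle and mural markers summed to 3442 to 3712 CPM in siNeg and to 1680 to 2108 CPM in the other 3 groups.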
